A study of Mus musculus with 11 samples.

Results

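In AML12 cells, an immortalised mouse hepatocyte line, 77 annotated genes moved in opposite directions in the TXNDC5 knockout (KO) and the TXNDC5 knock-in (KI) when each was set against wild type (WT). Of these, 35 were lower in KO and higher in KI, and 42 were higher in KO and lower in KI. The members were chosen by their measured values. Raw read counts were summed by gene name and scaled to CPM, a count relative to the library's total, with the trimmed mean of M-values (TMM), and a gene was kept where log2(group mean CPM + 1) differed from WT by at least 1 in KO and by at least 1 the other way in KI, with a mean of at least 2 CPM over the 11 libraries. The table held 21889 annotated gene names, of which 10997 reached 2 CPM. Names beginning with Serpina, Col, Itg, Lam, Sema, Eph, Efn, Slc, Gst, Krt or Cyp were set aside by the rule. That removed 312 of the 10997 genes, among them *Col7a1*, *Cyp4b1* and *Slc7a2*, which were the 3 that met the thresholds.

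Poly(A) RNA from 4 KO, 3 WT and 4 KI samples was sequenced, and the question is how transcript levels in the line follow the loss and the added expression of *Txndc5*. All samples were AML12 cells. A WT library carries the number 5-6 in its label and was used as 1 sample; whether it joins a pair of cultures is not given, and the WT SDs and n = 3 rest on this reading. The KO line was made with CRISPR/Cas9 and a repair plasmid carrying puromycin resistance, followed by selection for stable cells, and the labels call its genotype a knockdown. The KI line carries *Txndc5* for overexpression at the ROSA26 safe-harbour locus. Each genotype is a line of its own, so genotype and differences between lines cannot be told apart. Nothing used here says that the replicates came from separate cultures, so any p-value measures the spread between these samples, which may be technical. Reads assigned to annotated genes numbered 26530409 to 33855138 in KO, 22554021 to 24232285 in WT and 27039805 to 30978432 in KI. Entries that the authors assembled without a known gene took 18.8% to 25.3% of all counts in WT, against 11.9% to 13.4% in KO and 9.65% to 16.4% in KI. With these entries in the library size and TMM, 33 genes low in KO and 41 high in KO met the rule. Of these, 32 and 40 were shared, and *Ccn2*, *Elavl2*, *Pcdhb17*, *Zfp820* and *Zhx3* dropped out. What else this difference changed in the results was not tested.

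TXNDC5 is a protein disulfide isomerase of the endoplasmic reticulum, which helps secreted and membrane proteins form their disulfide bonds. Hepatocytes depend on that machinery because they secrete most plasma proteins, with albumin as the main product. Cultured hepatocyte lines keep only some of this programme, and culture on plastic also raises genes of the cytoskeleton and matrix that respond to the coactivator YAP, the effector of the Hippo pathway.

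The targeted gene was not a member. *Txndc5* stood at 12.1, 9.99, 15.2 and 11.1 CPM in KO, at 177, 167 and 171 CPM in WT and at 188, 213, 209 and 194 CPM in KI. Its KO libraries were far below every other library, and the KI libraries lay above the WT libraries without overlap, but by a small margin. By edgeR's quasi-likelihood test the log2 fold change was -3.82 (SE 0.14, adjusted p = 1.39e-11) for KO against WT and 0.23 (SE 0.13, adjusted p = 0.147) for KI against WT. Without TMM, on library totals, the KI change was 0.41 and passed the threshold. Whether reads of the inserted copy were counted under the gene's name is not given in the sources used here, so the KI value may leave out part of the *Txndc5* RNA of that line.

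Liver markers were present but incomplete. *Alb*, *Ttr*, *Apob* and *Hnf4a* were detected in every library, while *Fgg* and *Apoa2* were at or near 0. Of markers of other cells, *Epcam*, *Cldn4*, *Col1a2*, *Col3a1*, *Adgre1* and *Clec4f* were at 0 in all 11 libraries, but others of the same lists were detected. The 8 macrophage markers summed to 444 to 550 CPM in KO, 574 to 806 in WT and 446 to 503 in KI. Sums of the cholangiocyte and fibroblast lists are given below with the hepatocyte list. The 7 lymphocyte markers summed to at most 0.195 CPM in any library. Endothelial markers summed to between 0.584 and 2.62 CPM. In bulk RNA, fewer cells of a kind and less RNA per cell cannot be told apart.

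All 35 genes that were low in KO were called lower in KO than WT by edgeR's quasi-likelihood test at an adjusted p under 0.05, where 29.3% of 12639 tested genes were, and all 35 were called higher in KI, where 24.5% were. In either direction 58.6% of tested genes were called for KO against WT, 48.2% for KI against WT and 47.7% for KO against KI. All 42 genes that were high in KO were called higher in KO (29.3% of tested genes) and lower in KI (23.7%). KO against KI was called for every member too, with 24.3% of tested genes lower and 23.4% higher in KO. The 3 groups were ordered without overlap in all 35 (KO below WT below KI, 2.28% of the 10997 genes) and in all 42 (KI below WT below KO, 2.06%). The rule used these same differences and the 2 comparisons share the WT libraries, so nothing is read from these counts and no p-value of a member is given. Scaling by library totals alone put the median gene at 0.23 (KO) and 0.17 (KI) on the log2 scale, where TMM put it at -0.01 in both, and the share of calls that were higher went from 49.97% to 64.9% in KO and from 50.8% to 66.9% in KI. All 77 members kept their direction and their calls on that scale, from which nothing is read either, as the rule chose them on these differences. On that scale 4 low and 8 high genes no longer met the rule. The map of 35 low and 41 high genes by library shows each group as a block, with WT between the others.

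**Figure D1:**
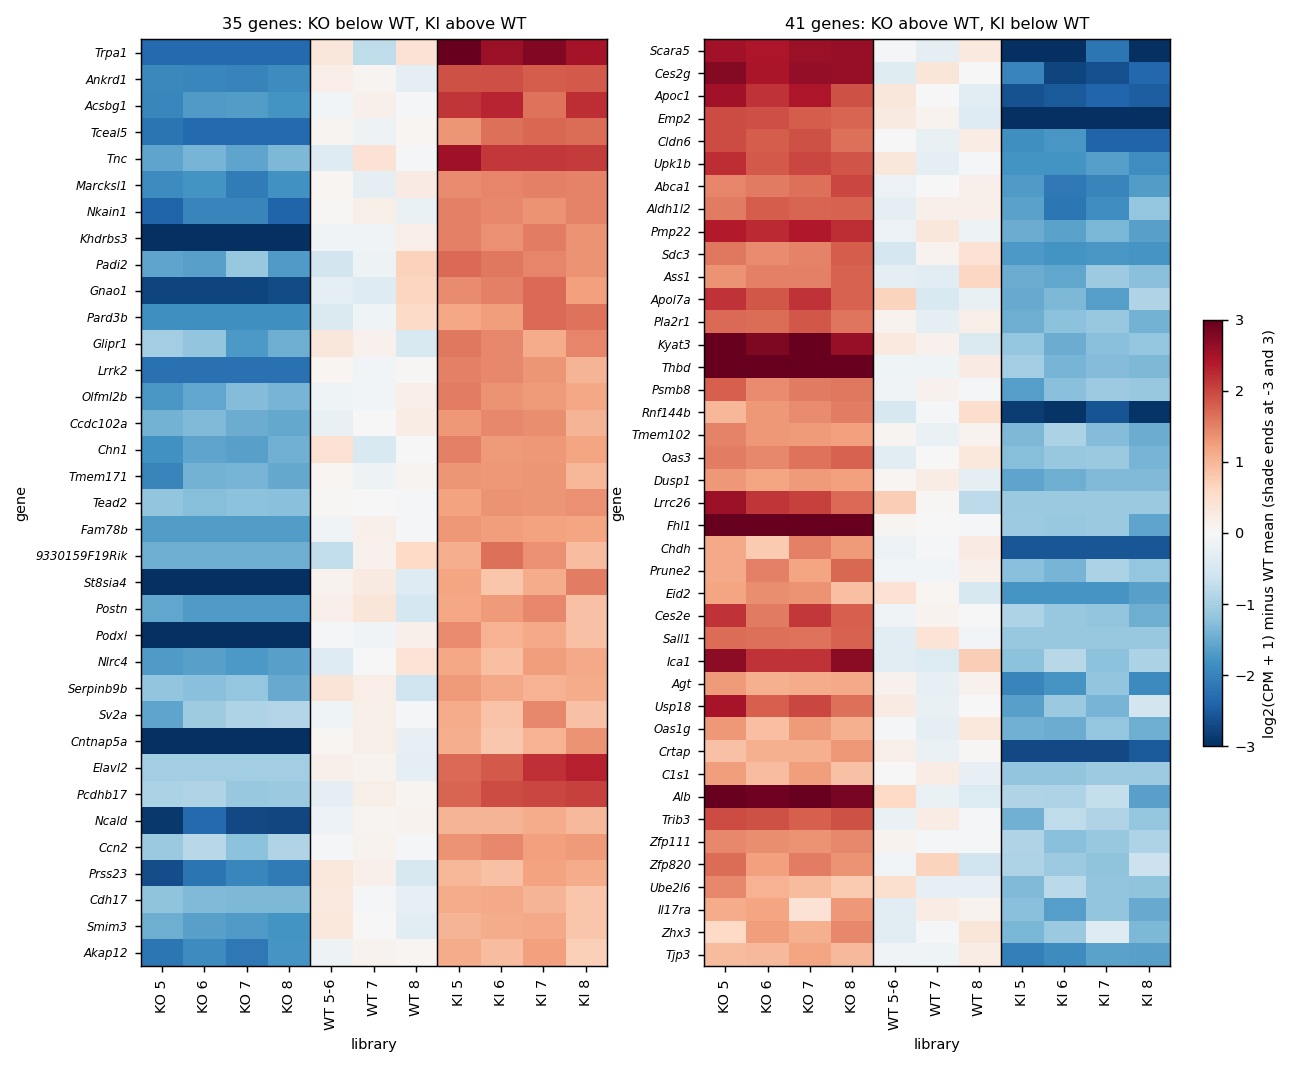
Each row is a gene and each column a library, coloured by log2(CPM + 1) minus the mean of the 3 WT libraries, with the shade ending at -3 and 3; genes are ordered by the smaller of their 2 differences. The 35 genes on the left are blue in 4 KO and red in 4 KI libraries, and 41 of the 42 genes of the other set, on the right, are red in KO and blue in KI.

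The genes low in KO and high in KI had a median difference on the log2(CPM + 1) scale of -1.71 in KO (range -5.30 to -1.01) and of 1.31 in KI (1.00 to 2.67). The KO step was the larger in 27 of the 35. In 7 of them every KO library held 0 counts, and in 10 every KO library held 3 counts or fewer, so these were at or near 0 in the knockout line. CPM is not scaled for gene length, so levels are compared here between libraries and not between genes.

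The members with known ties to Hippo signalling were *Ankrd1*, *Ccn2* and *Tead2*, a grouping made after their values were seen. *Ankrd1* encodes a muscle and stress-response ankyrin repeat protein and is a widely used YAP target. It was at 57.1, 56.0, 54.0 and 58.6 CPM in KO, at 253, 233 and 178 CPM in WT and at 828, 841, 779 and 787 CPM in KI, so that no library of a group reached the next group. The group means in KO, WT and KI were 56.4 ± 1.93, 222 ± 38.8 and 809 ± 30.7 CPM (± SD, n = 4, 3 and 4, an order kept for all means given here), with differences of -1.95 in KO and 1.86 in KI. *Ccn2*, the connective tissue growth factor gene and another YAP target, was at 93.0, 111, 84.7 and 107 CPM in KO, at 196, 215 and 192 CPM in WT and at 509, 548, 470.1 and 484 CPM in KI. Its KO difference of -1.01 was just past the threshold and its KI difference was 1.32. *Tead2*, a DNA-binding partner of YAP, was at 10.1, 9.47, 9.75 and 9.65 CPM in KO, at 24.9, 24.5 and 23.5 CPM in WT and at 57.5, 63.4, 62.2 and 64.2 CPM in KI. The spread within each *Tead2* group was small against the steps between groups, with means of 9.75 ± 0.286, 24.3 ± 0.729 and 61.8 ± 3.02 CPM.

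The promoter of *Ankrd1* is shown because it holds GGAATG, the core motif bound by TEAD factors, in 2 places. The sequence is RefSeq's, build GRCm38.p6, minus strand, chr19:36119845-36120094, the 250 bases that end just before the annotated start, with the motif in capitals at 210 and 123 bases before the start.
Ankrd1: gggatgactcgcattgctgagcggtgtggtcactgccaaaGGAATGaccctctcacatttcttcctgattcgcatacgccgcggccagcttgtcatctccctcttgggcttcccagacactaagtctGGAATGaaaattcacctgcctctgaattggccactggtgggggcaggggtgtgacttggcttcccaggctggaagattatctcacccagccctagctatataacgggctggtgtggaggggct
GGAATG on either strand was found in 5.26% of the 38 promoter windows (250 bases before to 50 after a start) of 22 matched genes low in KO, in 14.9% of the 47 windows of 34 matched genes high in KO, and in 12.0% of 11421 windows of all genes reaching 2 CPM. The motif in *Ankrd1* is a description of its letters and not a measured binding site.

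A wider list of 37 Hippo effectors and YAP targets, written after the members were known, was mixed. In KO 11 were called higher and 10 lower (median log2 fold change 0.02, against -0.01 for all genes tested), and in KI 14 were higher and 4 lower (median 0.25, against -0.01). On library totals 15 were higher and 10 lower in KO and 19 higher and 2 lower in KI. *Yap1* had a log2 fold change of 0.35 in KO and 0.31 in KI, the latter not called, and *Wwtr1*, which encodes TAZ, had -0.14 and -0.19, neither called. *Ccn1*, a matricellular YAP target like *Ccn2*, was higher in both, by 0.86 (KO) and 3.46 (KI). *Amotl1*, an angiomotin scaffold, had the opposing pattern with -1.26 and 0.97, and *Fjx1* had -0.85 and 0.87. The values of these 5 genes are named because they are the effectors, the close relative of a member and the next genes to share its pattern, a choice made after seeing them.

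**Figure D2:**
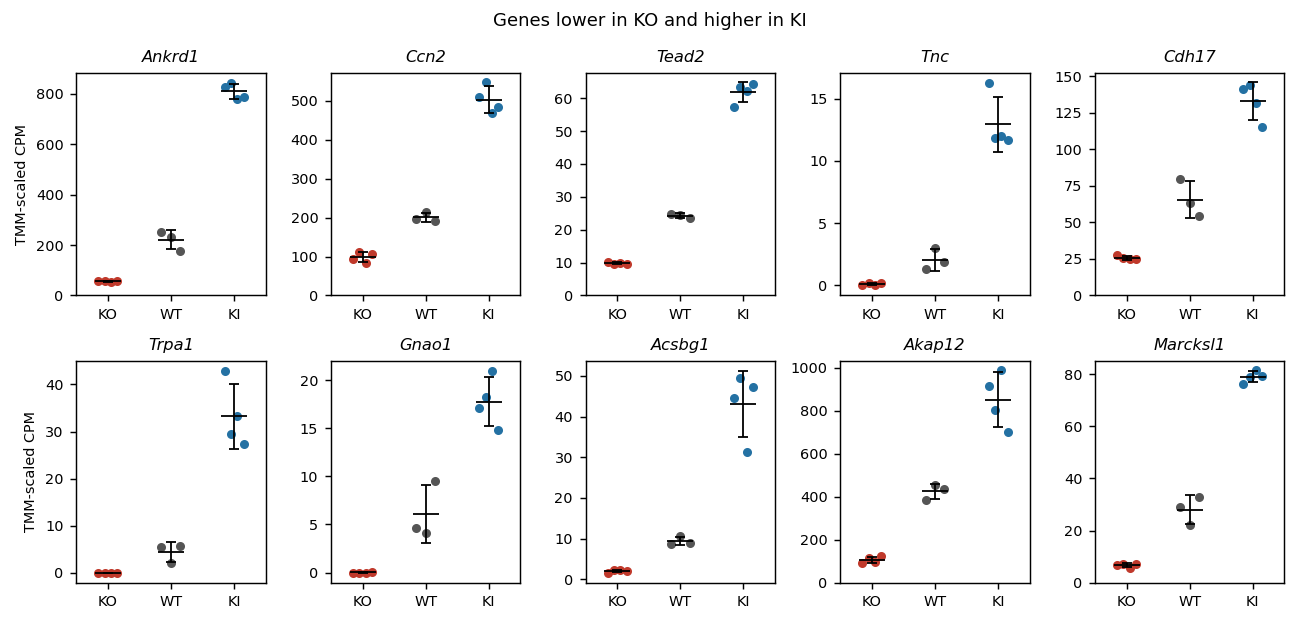
TMM-scaled CPM in every library for 10 genes low in KO and high in KI, by group, with a horizontal mark at the group mean and bars of 1 SD (n = 4 KO, 3 WT and 4 KI); each panel has its own linear axis. In every panel the 3 groups stand apart in the order KO, WT, KI.

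Genes of the matrix, adhesion and cell polarity numbered 9. *Tnc*, which encodes the matrix glycoprotein tenascin C, was at 0, 0.139, 0 and 0.163 CPM in KO, at 1.29, 3.02 and 1.86 CPM in WT and at 16.2, 11.8, 12.04 and 11.7 CPM in KI. KI 5 was the highest of the KI libraries, and the other 3 lay close together. *Postn*, the gene of the matricellular protein periostin, had group means of 0.0249 ± 0.0497, 2.37 ± 0.998 and 6.53 ± 1.22 CPM, with 3 of 4 KO libraries at 0. *Olfml2b*, an olfactomedin-like matrix gene, had 0.191 ± 0.155, 2.37 ± 0.401 and 7.48 ± 0.935 CPM. *Cdh17*, liver-intestine cadherin, was at 27.6, 25.4, 25.0 and 24.7 CPM in KO, at 79.5, 62.9 and 54.2 CPM in WT and at 141, 144, 132 and 115 CPM in KI, and its KI difference of 1.01 was close to the threshold. *Pard3b*, a polarity gene of the Par3 family, was at 0 in all KO libraries, at 1.66, 2.29 and 4.35 CPM in WT and at 7.09, 7.57, 10.6 and 10.1 CPM in KI, which sets WT at least 28.3-fold above KO when KO is given 3 counts per library. The other genes were *Pcdhb17*, *Cntnap5a* and *Podxl* (adhesion and surface glycoproteins) and *Prss23*, a serine protease, with KO differences between -3.44 and -1.03 and KI differences between 1.01 and 1.93.

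Of the 40 tested genes in a list of non-collagen matrix proteins, 3 were low members (*Tnc*, *Postn* and *Ccn2*) and *Sdc3* was a high member. In KO 11 of the list were called higher and 19 lower, with a median of -0.30, and in KI 14 were higher and 8 lower with a median of -0.04. On library totals the medians were -0.07 in KO and 0.14 in KI.

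A group of 11 genes, put together by hand after their values were seen, holds genes described in neurons, sensory cells or ion transport, several of them also active in other tissues. *Trpa1*, the irritant-gated cation channel of sensory neurons, was at 0 in every KO library and was at 5.42, 1.95 and 5.75 CPM in WT and 42.9, 29.4, 33.3 and 27.4 CPM in KI. Every KI library was above every WT library. With KO given 3 counts per library, WT was at least 44.7-fold higher than KO, and KI was 7.61 times WT. *St8sia4*, a polysialyltransferase that modifies the neural cell adhesion molecule, was at 0 in all KO libraries, at 40.8, 45.5 and 28.7 CPM in WT and at 87.2, 67.7, 82.6 and 111 CPM in KI. WT was thereby at least 391-fold above KO. *Lrrk2*, a large kinase with a GTPase domain known from Parkinson disease, was also at 0 in KO, with 3.97, 3.46 and 3.85 CPM in WT and 12.5, 11.8, 10.9 and 8.71 CPM in KI.

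*Gnao1*, the alpha subunit of the G protein Go, was at 0 in 3 KO libraries and at 0.0542 CPM in KO 8, with 4.62, 4.14 and 9.55 CPM in WT and 17.1, 18.3, 21.0 and 14.8 CPM in KI. *Khdrbs3*, an RNA-binding splicing regulator, followed the same course with KO at 0 in 3 libraries and at 0.108 CPM in KO 8, then 12.997, 13.05 and 16.2 CPM in WT and 41.7, 37.6, 42.7 and 37.4 CPM in KI. Both genes were thus at or near 0 in the knockout and detected in every WT and KI library. *Acsbg1*, an acyl-CoA synthetase first described in brain, was at 1.66, 2.19, 2.23 and 2.01 CPM in KO, at 8.75, 10.6 and 8.88 CPM in WT and at 44.5, 49.5, 31.2 and 47.2 CPM in KI, and KI was 4.59 times WT. *Nkain1*, which encodes a protein that interacts with the sodium pump, had means of 0.176 ± 0.203, 4.35 ± 0.671 and 13.6 ± 0.693 CPM. Reads of *Nkain1* were split between several entries of the table, unevenly across libraries, and 6 other members also had several entries (*Marcksl1*, *Smim3*, *Padi2*, *Sdc3*, *Psmb8* and *Il17ra*). *Ncald*, *Chn1*, *Sv2a* and *Elavl2* (a calcium sensor, a Rac GTPase-activating protein, a synaptic vesicle protein and a neuronal RNA-binding protein) had KO differences of -2.65 to -1.05 and KI differences of 1.03 to 2.03.

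The remaining 12 low genes had no common role. *Akap12*, a scaffold for protein kinases A and C, was at 94.1, 115, 94.5 and 124 CPM in KO, at 383, 453 and 437 CPM in WT and at 914, 802, 988 and 700.2 CPM in KI. The KO step was -1.98 and the KI step 1.00, which made it the member closest to the threshold. *Marcksl1*, an actin-linked substrate of protein kinase C, was at 6.76, 7.31, 5.67 and 7.13 CPM in KO, at 28.9, 22.3 and 33.0 CPM in WT and at 76.4, 78.9, 81.4 and 79.1 CPM in KI. Its WT libraries lay between the others and their range did not touch either. *Serpinb9b*, a granzyme inhibitor of the serpin family, had means of 59.0 ± 6.14, 149.7 ± 48.9 and 318 ± 22.1 CPM, with the lowest WT library, WT 8, at 95.3 CPM. *Glipr1* had 15.6 ± 3.42, 41.7 ± 11.4 and 109.6 ± 14.2 CPM and *Smim3* 13.1 ± 1.34, 43.9 ± 9.68 and 89.4 ± 8.31 CPM. *Padi2*, which converts arginine to citrulline in proteins, had 2.66 ± 0.691, 10.02 ± 5.09 and 28.7 ± 3.19 CPM, with a wide spread in WT. *Tceal5* (KO difference -2.30, KI difference 1.60) was at 0 in 3 KO libraries. *Ccdc102a* had differences of -1.45 and 1.29. *Nlrc4*, an inflammasome gene, *Tmem171*, *Fam78b* and the uncharacterised *9330159F19Rik* had KO differences of -1.71 to -1.57 and KI differences of 1.08 to 1.24.

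The genes high in KO and low in KI had a median difference of 1.62 in KO (range 1.01 to 5.02) and of -1.36 in KI (-3.26 to -1.03). The KO step was the larger in 25 of the 42. In 3 of them, *Chdh*, *Lrrc26* and *Sall1*, every KI library held 0 counts, and in 4 every KI library held 3 counts or fewer.

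Secreted liver proteins and lipid handling accounted for 8 of them. *Alb*, the albumin gene, was at 5638, 4483, 5068 and 4228 CPM in KO, at 890.4, 514 and 446 CPM in WT and at 313, 307, 358 and 191 CPM in KI. Every KO library was far above the WT libraries, and no KI library reached the lowest of them. The means were 4854 ± 629.7, 617 ± 239.6 and 292 ± 71.5 CPM, a 7.87-fold higher level in KO than WT and a 2.11-fold lower level in KI. *Agt*, which encodes angiotensinogen, the liver-made precursor of the angiotensins, was at 127, 110.1, 115 and 116 CPM in KO, at 57.3, 43.8 and 57.0 CPM in WT and at 12.5, 14.5, 22.5 and 13.2 CPM in KI. *Apoc1*, an apolipoprotein gene, was at 37.1, 29.1, 35.3 and 24.2 CPM in KO, at 7.47, 5.60 and 4.40 CPM in WT and at 0.0999, 0.164, 0.279 and 0.218 CPM in KI, so it was near 0 in KI. *C1s1*, the complement protease C1s, had means of 149.8 ± 21.6, 70.4 ± 11.5 and 31.3 ± 1.25 CPM.

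*Scara5*, a scavenger receptor that takes up ferritin, was at 275, 258, 288 and 292 CPM in KO, at 45.9, 39.0 and 58.2 CPM in WT and at 3.73, 4.06, 9.65 and 5.04 CPM in KI, with differences of 2.52 in KO and -2.88 in KI, the largest of the high set by the smaller of the 2 differences. *Abca1*, the exporter that loads cholesterol onto apolipoprotein A-I, was at 31.1, 33.2, 35.2 and 45.2 CPM in KO, at 9.24, 10.8 and 12.00 CPM in WT and at 2.60, 1.61, 1.92 and 2.65 CPM in KI. KO was 3.39 times WT and WT 4.86 times KI. *Pla2r1*, a receptor for secreted phospholipase A2, had means of 29.2 ± 2.44, 8.31 ± 1.47 and 2.74 ± 0.395 CPM, and *Apol7a*, an apolipoprotein L gene, had 20.6 ± 3.03, 4.71 ± 2.51 and 1.15 ± 0.516 CPM. Reads of *Apol7a* may be shared with its close relatives.

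The promoter of *Agt* is shown as an example of TATAAA, the TATA box motif, close to the start. It lies on the minus strand at chr8:124569707-124569956 (RefSeq, GRCm38.p6), the 250 bases before the start, with TATAAA in capitals beginning 30 bases before the start.
Agt: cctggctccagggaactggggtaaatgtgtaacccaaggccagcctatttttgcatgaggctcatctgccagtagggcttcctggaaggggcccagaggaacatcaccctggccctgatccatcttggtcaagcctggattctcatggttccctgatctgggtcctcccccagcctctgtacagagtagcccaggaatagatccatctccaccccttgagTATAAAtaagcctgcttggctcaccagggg
TATAAA was searched on either strand and anywhere in the window. It was in 19.1% of the 47 windows of high genes, 10.5% of the 38 windows of low genes and 6.89% of all 11421. Matches in the high genes lay from 24 (*Ica1*) to 237 (*Psmb8*) bases before the start, so these are not shares of boxes close to it. In base composition, the ratio of observed to expected CpG reached 0.6 in 40.4% of windows of the high genes and 50% of the low genes, against 71.0% of all windows. Of the other motifs, the GC box GGGCGG was in 44.7% of windows of the high genes, 55.3% of the low genes and 63.6% of all, and the box CCAAT in 31.9%, 31.6% and 38.4%. TGANTCA (AP-1) was in 4.26% of windows of the high genes, 5.26% of the low genes and 5.07% of all. In that order, TGACGTCA (the cyclic AMP response element) was in 4.26%, 2.63% and 3.16%, and TTCNNNGAA (STAT factors) in 10.6%, 5.26% and 6.72%. TGACNNNGC (the antioxidant response element) was in 8.51%, 7.89% and 14.4%. CAAAGTCCA (HNF4) was in 2.13%, 2.63% and 0.385%, with 1 window in each of the 2 sets. No window of a member held the HNF1 palindrome (GTTAAT, 1 base, ATTAAC) or the endoplasmic reticulum stress element (CCAAT, 9 bases, CCACG), which were in 0% and 0.131% of all windows. These shares were not tested, windows of a gene may overlap, CCAAT is part of the last motif, and the printed promoters were chosen after the matches were seen.

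**Figure D3:**
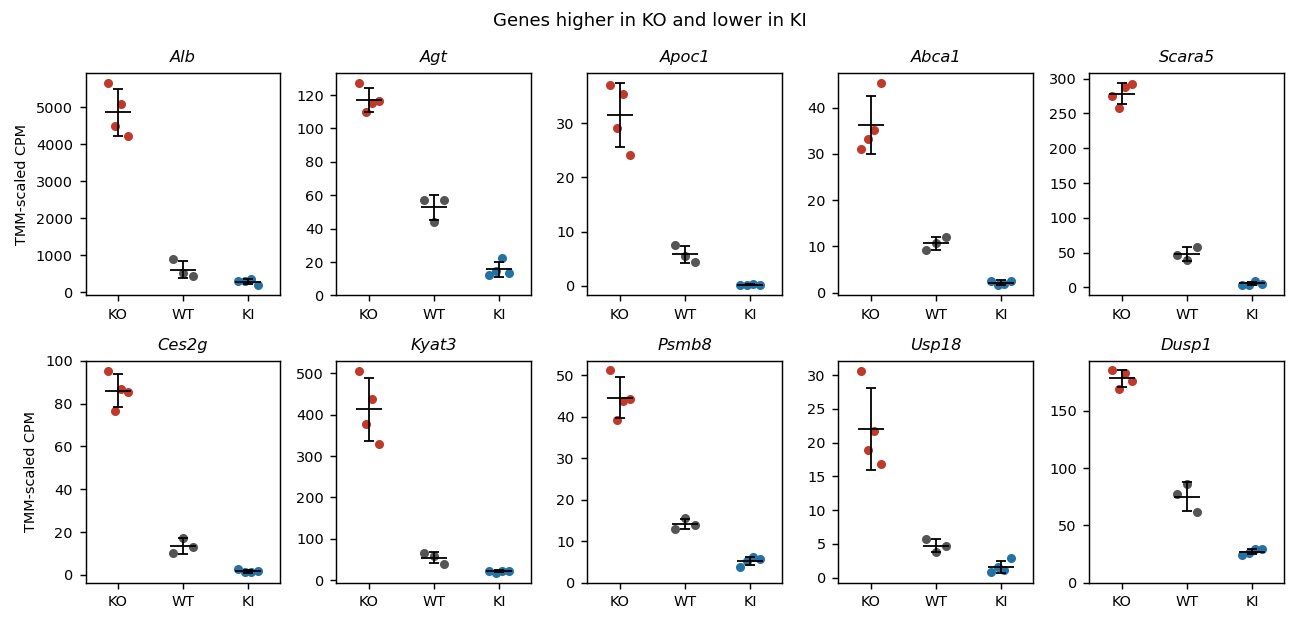
TMM-scaled CPM in every library for 10 genes high in KO and low in KI, by group, with a horizontal mark at the group mean and bars of 1 SD (n = 4 KO, 3 WT and 4 KI); each panel has its own linear axis. In every panel the KO libraries lie above all WT libraries, which lie above all KI libraries.

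Metabolic enzymes numbered 6. The carboxylesterases *Ces2e* and *Ces2g*, which hydrolyse lipid and drug esters, start 35.3 kb apart on chromosome 8. *Ces2g* was at 95.5, 76.5, 87.0 and 85.5 CPM in KO, at 9.99, 17.3 and 13.2 CPM in WT and at 2.60, 1.11, 1.27 and 1.78 CPM in KI, and *Ces2e* was at 11.4, 7.21, 11.02 and 8.62 CPM in KO, at 1.56, 2.00 and 1.78 CPM in WT and at 0.466, 0.262, 0.217 and 0 CPM in KI. In both the KO libraries were the highest and the KI libraries the lowest, but as close paralogs they may share reads. *Kyat3*, a kynurenine aminotransferase of tryptophan breakdown, was at 507, 378, 439 and 329 CPM in KO, at 65.7, 57.7 and 39.3 CPM in WT and at 23.3, 18.3, 21.7 and 23.2 CPM in KI. *Ass1*, the argininosuccinate synthase of the urea cycle, was at 107, 121, 121 and 144 CPM in KO, at 33.6, 32.9 and 64.9 CPM in WT and at 14.1, 13.4, 18.9 and 16.8 CPM in KI, with WT 8 above the other WT libraries. *Aldh1l2*, a mitochondrial enzyme of folate metabolism, had means of 40.2 ± 3.10, 11.6 ± 2.15 and 2.97 ± 1.20 CPM. *Chdh*, the choline dehydrogenase gene, was the enzyme at 0 in KI.

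Hepatocyte markers as a list moved with *Alb* and *Ass1* in part. Of 14 tested, these 2 members included, 9 were called higher and 4 lower in KO (median log2 fold change 1.23), and 3 were higher and 7 lower in KI (median -1.07). *Apoa1* and *Apoh*, which encode plasma apolipoproteins, had 3.82 and 3.05 in KO and -1.06 and -1.60 in KI, so they took the same course, while *Ttr*, the transthyretin gene, had -0.94 and -0.48, and *Apob* had 0.66 and 1.20. *Hnf4a*, the hepatocyte transcription factor, had 1.35 in KO and 0.30 in KI, the latter not called. The summed level of the list was 6222 to 7607 CPM in KO, 2081 to 2948 CPM in WT and 2159 to 2875 CPM in KI. *Alb*, which the rule chose for being high in KO, alone held 4228 to 5638 CPM of it in KO. It held 446 to 890.4 CPM in WT and 191 to 358 CPM in KI, so the sum mostly follows this gene in KO. The sum of 9 cholangiocyte markers went the other way in KO, with 2811 to 3601 CPM against 5834 to 9177 in WT and 5680 to 6335 in KI, and that of 12 fibroblast and stellate cell markers was 1381 to 1509 CPM in KO, 833 to 1071 in WT and 823 to 946 in KI. The last sum rests on few genes, since 8 of the 12 held at most 3 counts in every KO library. Of the 4 that were tested, 1 was called higher and 1 lower in KO (median log2 fold change -0.17). The part of these shifts in the members' values was not tested.

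Interferon-stimulated genes formed a group of 5. *Psmb8*, an inducible subunit of the immunoproteasome, was at 51.2, 39.2, 43.8 and 44.4 CPM in KO, at 13.1, 15.6 and 13.9 CPM in WT and at 3.83, 5.34, 6.11 and 5.84 CPM in KI. *Oas3* and *Oas1g* encode oligoadenylate synthetases, which sense double-stranded RNA, and start 110 kb apart on chromosome 5. *Oas3* was at 29.1, 27.0, 31.0 and 34.3 CPM in KO, at 7.30, 9.44 and 11.96 CPM in WT and at 3.30, 3.70, 3.82 and 2.94 CPM in KI, and *Oas1g* was at 6.83, 4.91, 6.63 and 5.64 CPM in KO, at 2.09, 1.61 and 2.92 CPM in WT and at 0.166, 0.131, 0.403 and 0.145 CPM in KI. In each of these 3 genes every KO library was above every WT library, and every WT library above every KI library. *Usp18*, which removes the ubiquitin-like protein ISG15 and damps interferon signalling, was at 30.7, 18.8, 21.7 and 16.9 CPM in KO, at 5.75, 3.85 and 4.61 CPM in WT and at 0.832, 1.61, 1.15 and 2.87 CPM in KI. *Ube2l6*, the conjugating enzyme for ISG15, had differences of 1.04 and -1.16. *Oas1g* has close paralogs, and reads of *Psmb8* were split unevenly between several entries of the table.

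The promoters of the *Oas* pair are shown because both hold GAAA repeated after 2 other bases, the core of interferon response elements. Both are RefSeq's, GRCm38.p6, on the minus strand and end just before the annotated start, with matches in capitals. That of *Oas3*, chr5:120777660-120777909, holds a match 75 bases before the start, and that of *Oas1g*, chr5:120887614-120887863, holds 2 that overlap, at 18 and 12 bases before it.
Oas3: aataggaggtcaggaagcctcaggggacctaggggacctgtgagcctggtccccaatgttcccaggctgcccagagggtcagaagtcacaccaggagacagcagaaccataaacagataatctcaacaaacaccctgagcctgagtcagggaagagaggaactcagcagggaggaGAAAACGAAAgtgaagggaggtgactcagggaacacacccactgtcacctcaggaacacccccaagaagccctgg
Oas1g: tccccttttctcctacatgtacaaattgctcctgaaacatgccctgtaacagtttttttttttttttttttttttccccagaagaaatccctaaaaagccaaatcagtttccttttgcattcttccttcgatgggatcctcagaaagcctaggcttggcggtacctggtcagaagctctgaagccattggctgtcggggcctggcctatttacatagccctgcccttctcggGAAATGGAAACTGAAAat
The motif, searched on both strands, was in 4.26% of windows of the high genes, where these were the 2 genes that held it, in 2.63% of windows of the low genes and in 2.97% of all windows.

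The list of interferon-stimulated and antigen presentation genes had 47 tested genes, 4 of them members. In KO 23 were called higher and 7 lower, with a median log2 fold change of 0.64 against -0.01 over all genes tested, and in KI 7 were higher and 23 lower, with a median of -0.59 against -0.01. *Isg15* had 1.63 in KO and -1.11 in KI, and *Irf7*, the amplifier of interferon induction, had 1.33 and -1.17. *Ifit1*, which encodes a protein that binds viral RNA, had -0.06, not called, and -2.71. Not all followed, since *Nlrc5*, the activator of class I antigen presentation genes, was higher in both (2.43 and 1.74) and *Bst2* lower in both (-0.89 and -0.71). The direction of both medians was the same on library totals and with DESeq2. The summed level of the list was 4172 to 5329 CPM in KO, 3878 to 5326 in WT and 3447 to 3631 in KI. The KO and WT sums thus overlapped. The genes named from the list were picked after seeing their values. The dot plot of the 2 lists gives 46 of the 47.

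**Figure D4:**
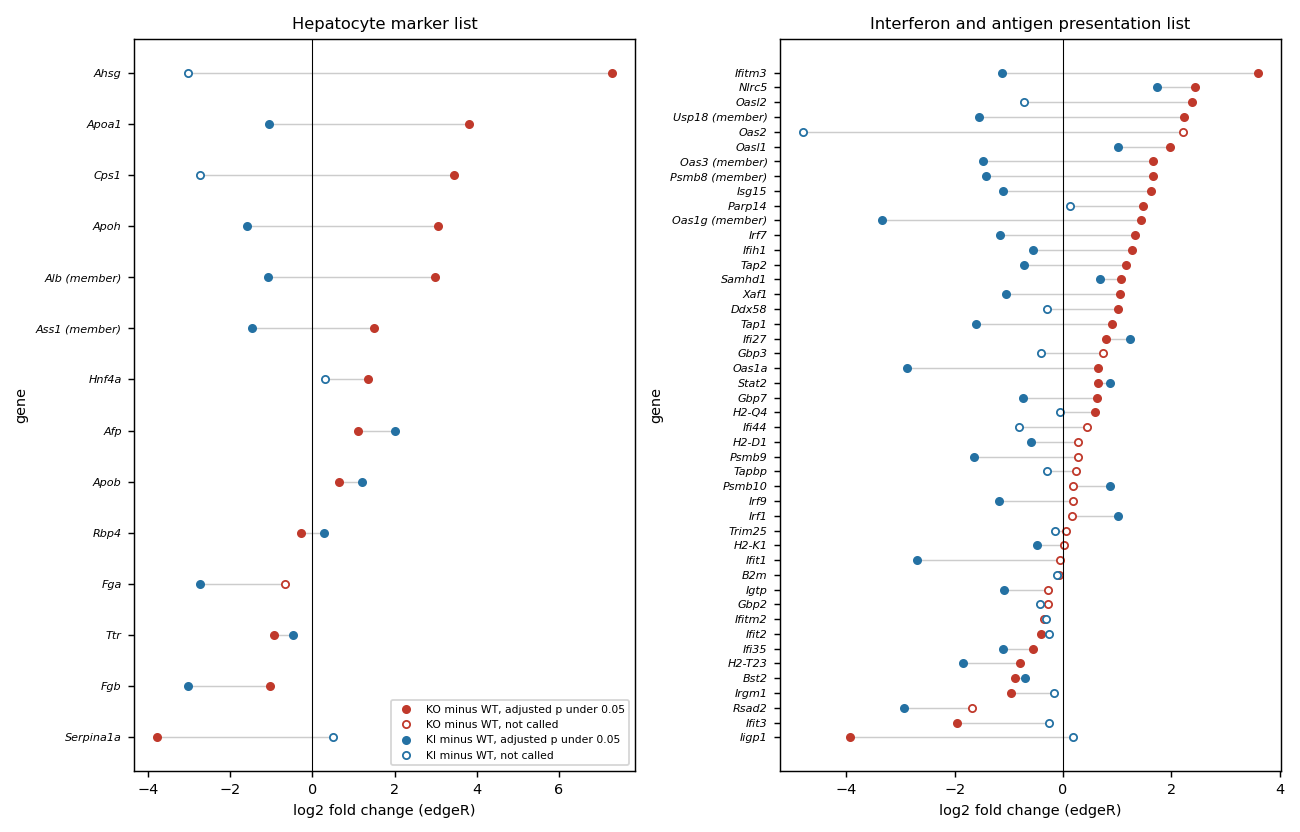
Log2 fold changes from edgeR for KO minus WT (red) and KI minus WT (blue) of the 14 tested hepatocyte markers and 46 of the 47 tested interferon and antigen presentation genes, with filled points at an adjusted p under 0.05 and a grey line joining the points of a gene. Both comparisons use the same 3 WT libraries, and genes meeting the rule are marked as members.

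Surface, junction and receptor genes numbered 10. *Cldn6*, a claudin of tight junctions in early epithelia, was at 24.0, 21.7, 23.1 and 19.1 CPM in KO, at 5.37, 4.48 and 6.51 CPM in WT and at 0.799, 0.918, 0.217 and 0.218 CPM in KI. *Tjp3*, the junction scaffold ZO-3, was at 56.1, 57.3, 66.3 and 57.7 CPM in KO, at 26.9, 26.4 and 33.7 CPM in WT and at 6.16, 7.05, 8.84 and 8.60 CPM in KI, and its KO step of 1.01 was the closest to the threshold in this set. The list of cell junction genes held 2 high members (*Cldn6* and *Tjp3*) and 1 low member (*Cdh17*). Of its 39 tested genes, 18 were called higher and 11 lower in KO, and 12 higher and 9 lower in KI. The split depended on the scaling, with 21 higher and 7 lower in KO and 13 higher and 4 lower in KI on library totals. *Emp2*, an epithelial membrane protein, was at 38.0, 37.2, 34.2 and 32.9 CPM in KO and 11.1, 9.83 and 6.72 CPM in WT, and was at 0 in 3 KI libraries and at 0.262 CPM in KI 6. Its KI difference of -3.26 was the lowest of the set. *Pmp22*, a related tetraspan protein of myelin, was at 17.5, 15.9, 17.8 and 15.5 CPM in KO, at 2.15, 3.51 and 2.20 CPM in WT and at 0.266, 0.164, 0.372 and 0.145 CPM in KI. *Upk1b*, a uroplakin, had means of 15.6 ± 1.99, 3.21 ± 0.931 and 0.213 ± 0.0695 CPM.

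*Thbd*, which encodes thrombomodulin, a surface receptor that turns thrombin towards anticoagulant activity, was at 27.1, 29.1, 27.4 and 31.0 CPM in KO, at 1.40, 1.41 and 2.11 CPM in WT and at 0.266, 0, 0.0620 and 0.0363 CPM in KI. KO was 17.5 times WT. *Sdc3*, a heparan sulfate proteoglycan, had means of 12.2 ± 1.59, 3.55 ± 1.44 and 0.299 ± 0.0300 CPM. *Il17ra*, a receptor chain for interleukin 17, had 9.57 ± 2.52, 4.17 ± 1.03 and 0.948 ± 0.287 CPM, with KO 7 below the other KO libraries. *Lrrc26*, an accessory subunit of potassium channels, had a KO difference of 2.03 and a KI difference of -1.23, with no reads in the KI libraries.

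Signalling and stress genes numbered 7. *Dusp1*, a phosphatase that switches off MAP kinases, was at 185, 169, 183 and 176 CPM in KO, at 77.7, 86.4 and 61.5 CPM in WT and at 24.2, 26.3, 29.2 and 29.4 CPM in KI. *Trib3*, a pseudokinase induced by ATF4 under endoplasmic reticulum or amino acid stress, was at 74.0, 71.1, 65.7 and 71.2 CPM in KO, at 15.8, 21.5 and 17.9 CPM in WT and at 6.06, 10.3, 9.34 and 7.69 CPM in KI. *Fhl1*, a LIM domain protein, was at 113, 75.2, 114 and 81.0 CPM in KO, at 2.15, 1.95 and 1.86 CPM in WT and at 0.399, 0.361, 0.372 and 0 CPM in KI, a change of 48.4-fold between WT and KO, and had the largest KO difference of the high set (5.02). *Rnf144b*, *Tmem102*, *Prune2* and *Ica1* had KO differences of 1.27 to 2.35 and KI differences of -2.89 to -1.15.

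*Trib3* was the single member among 40 genes of endoplasmic reticulum stress and disulfide isomerases. In KO 25 of that list were called higher and 10 lower (median 0.54), and in KI 4 were higher and 16 lower (median -0.22, or -0.05 on library totals). Library totals gave 27 higher and 5 lower in KO and 7 higher and 13 lower in KI. *Hspa5*, the chaperone BiP, had 0.61 in KO and -0.77 in KI, and *Herpud1*, of the degradation pathway, had 0.83 and -0.70. *Asns*, another ATF4 target, was higher in both with 1.92 and 0.58, and *Ero1a*, the oxidase that recharges disulfide isomerases, was lower in both with -2.38 and -2.01. These 4 were picked after seeing their values.

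The last group held *Zhx3*, *Sall1*, *Zfp111*, *Zfp820* and *Eid2*, which encode transcription factors or regulators of transcription, and *Crtap*, a partner of collagen prolyl hydroxylase. *Zhx3* had means of 14.8 ± 3.65, 6.35 ± 1.81 and 2.60 ± 1.27 CPM. The others had KO differences of 1.08 to 1.66 and KI differences of -2.66 to -1.05. *Zfp111* and *Zfp820* belong to a large family of similar zinc finger genes and may share reads.

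Other lists held few members. Lipid metabolism had 2 (*Apoc1* and *Abca1*) among 87 tested genes, of which 36 were called higher and 25 lower in KO and 16 higher and 34 lower in KI. On library totals 23 were higher and 24 lower in KI, and the KI median of -0.15 turned to 0.02. Complement and coagulation had 2 (*C1s1* and *Thbd*) among 30, with 9 higher and 14 lower in KO and 4 higher and 16 lower in KI. Chemokines, cytokines and their receptors had *Il17ra* among 59, with 11 higher and 27 lower in KO and 18 higher and 23 lower in KI, where library totals gave 22 higher and 19 lower. Of the 22 lists, 8 held a member, and 19 of the 77 genes were in a list (4 low and 15 high). Cell cycle genes held none: 34 of 41 were called higher in KO and 34 higher in KI.

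The 77 genes were spread over the genome. Of 20 chromosomes, 15 held a low gene and 17 a high gene. Chromosome 1 held 6 low and 0 high genes, chromosome 4 held 6 low and 2 high, and chromosome 2 held 1 low and 7 high. These chromosomes had 5.81%, 6.29% and 7.90% of all genes reaching 2 CPM. Over all such genes of a chromosome, the median KO difference ran from -0.35 (chromosome 14) to 0.55 (chromosome 7). The part of these shifts in the members' positions was not tested. Apart from the *Ces2* and *Oas* pairs, no members started within 200 kb of each other.

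At the thresholds, *Akap12*, *Smim3* and *Cdh17* were just inside the low set with KI differences of 1.00, 1.01 and 1.01, and *Evl* and *Aebp1* just outside with 0.99 and 0.99, and *Dlgap1* with a KO difference of -0.99. In the high set *Tjp3* and *Il17ra* were inside with KO differences of 1.01 and 1.03, and *Zhx3* with a KI difference of -1.03. Just outside were *Plcb4* and *Trim5* with KO differences of 0.99 and 0.97 and *S100g* with a KI difference of -0.97. Values on either side of the line thus differed by a few hundredths. The spread between replicates was wider than that. The median SD of log2(CPM + 1) within WT was 0.23 over the low and 0.29 over the high genes, against 0.12 to 0.20 in KO and KI. Of the 35 low genes 20 met the rule with any of the 11 libraries left out, and of the 42 high genes 27 did.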

How the data were processed

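Poly(A) RNA of AML12 KO, WT and KI cells was sequenced. The deposited values used are raw read counts per gene, made by the authors with tools that the submitters' processing notes give as HISAT2, TopHat2, Bowtie2 and StringTie, without roles or versions. The genome build and annotation are not given in the sources used here. No strand-specific kit is stated either, so whether reads of overlapping genes were told apart is not known. Deposited FPKM columns had lost decimal points and were not used, nor were the authors' columns of fold changes and adjusted p-values. Of 26472 lines, 10 were broken and left out. Counts of 23502 entries of annotated genes were summed to 21889 names, and 2960 newly assembled entries were left out.

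Counts were scaled with TMM and tested with edgeR 4.0.16 (glmQLFit and glmQLFTest, robust, filterByExpr, Benjamini-Hochberg) in R 4.3.3, in 1 fit over the 3 groups without covariates. DESeq2 1.42.0 and limma 3.58.1 were alternatives, with library totals, other pseudocounts and minima, newly assembled entries, a replicate block and the leaving out of each library. Fold changes and SEs are on the log2 scale. A difference on the log2(CPM + 1) scale understates the change of genes near 0. A count of 3 per library was the floor for bounds, which cover counting error only.

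The members, lists and motifs were chosen with earlier results of these data known, and roles, the Hippo list and the printed promoters after the values were seen. Values were given for *Txndc5*, for the 15 members of each direction with the largest smaller difference, for the 10 with the highest mean CPM, for members in a list, for genes beside the thresholds and for neighbours within 200 kb, and other members by name, counts and ranges. A member and a gene of the interferon list are not reported here by name, but enter the counts. No pair of libraries of a group differed by so little as counting noise (chi-square per degree of freedom 13.3 to 126). Lists without a member are not described, except cell markers and cell cycle genes. Promoters are RefSeq's, GRCm38.p6, matched by symbol, and positions come from the reference annotation.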

Additional observations from a re-analysis of the deposited data

Results flagged for a closer look

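In groups of 4 libraries, 146 sets of values of the members were examined for a library standing apart by the gap to its neighbour over the whole range (Dixon, 95% critical value), and 14 were found. In 8 of them the other 3 libraries were at 0, so the ratio is 1 by construction and the chance rate of about 1 in 20 does not apply. Of the other 138 sets 6 were found, where chance gives about 6.9. In *Gnao1*, *Khdrbs3* and *Podxl* KO 8 held the only reads of the KO group (0.0542, 0.108 and 0.108 CPM, ratio 1), and in *Postn* and *Tceal5* KO 5 did (0.0995 CPM in each, ratio 1). *Padi2* was at 3.69 CPM in KO 7 against 2.20 to 2.42 in the others (0.849), and *Tjp3* at 66.3 CPM in KO 7 against 56.1 to 57.7 (0.842). In KI, *Tmem171* was at 26.4 CPM in KI 8 against 32.9 to 33.3 (0.945), and *Tnc* at 16.2 CPM in KI 5 against 11.7 to 12.04 (0.922). *Crtap* and *Eid2* had reads in KI 8 alone of the KI group (0.145 and 0.109 CPM, ratio 1), and *Emp2* in KI 6 alone (0.262 CPM, ratio 1). *Fhl1* was at 0 in KI 8 against 0.361 to 0.399 CPM (0.903), and *Oas1g* at 0.403 CPM in KI 7 against 0.131 to 0.166 (0.870). In none of the 14 did the library reach the range of the WT libraries.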

How the results depend on the processing

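The number of members depended most on the thresholds. At a threshold of 1.5 on both differences 5 low and 10 high genes were left. With a pseudocount of 2 the low set had 24 genes, without *Tnc*, *Postn* and *Cdh17* among others, and the high set 25. With a pseudocount of 0.5 the sets had 46 and 57 genes, and with a minimum mean CPM of 5 they had 26 and 34. Scaled by library totals, the low set had 48 genes, of which 31 were shared (*Ccn2*, *Elavl2*, *Pcdhb17* and *Sv2a* dropped out), and the high set 40, of which 34 were shared (*Alb*, *C1s1*, *Trib3*, *Ube2l6*, *Usp18*, *Zfp111*, *Zfp820* and *Zhx3* dropped out). Leaving out each library in turn gave 33 to 38 low and 39 to 43 high genes. Without WT 8 the low set lost 8 of its genes (*St8sia4* and *Cdh17* among them), and without WT 5-6 the high set lost 8 (*Alb* and *Tjp3* among them). Calls over all genes ranged from 6534 to 8021 (KO against WT), 4999 to 6864 (KI against WT) and 5314 to 6908 (KO against KI) in those fits. Whether the labels' replicate numbers pair the samples is not settled. Deviations of same-numbered libraries from their group means had correlations of -0.388 to 0.529 over 8 pairs, too few and too mixed to decide it. With the replicate block, calls for KI against WT went from 6096 to 3724, 2 members lost their call in KO, among them *Il17ra* (log2 fold change 0.98 with the block, 1.20 without), and 4 lost theirs in KI. In KI *Nkain1* had 1.67 with the block and 1.64 without, *Olfml2b* 1.72 and 1.65, *Postn* 1.54 and 1.47, and *9330159F19Rik* 1.00 and 1.53. *Nkain1* was also not called in KI by DESeq2, and *Lrrc26* was not tested in the fit of KI and WT alone. *Txndc5* in KI against WT was 0.41 on library totals and then passed the threshold. The causes were not tested. All 1740 values of the 116 differences of named genes, under 15 settings, kept their sign, and 68 moved by more than the spread between replicates. The named genes lay past or beside the thresholds on these same differences, so nothing is read from the kept signs. Nothing below 3 counts per library could be separated from 0 at this depth.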
